A study of Mus musculus with 10 samples.

Results

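Collagens are built from 3 chains each, and every chain is the product of its own gene. The genes described here are the mouse collagen chain genes, chosen as the symbols of the deposited series table that consist of Col, a number, the letter a and a number. The table held 43 such symbols among 21193. Col4a3bp shares the beginning of such a name but encodes a ceramide transfer protein and was left out. Of the 43 genes, 38 had a probe that could be named in the scanner files (66 probes on 84 spots), and 26 were measured well enough to be tested, of 17846 genes tested in all.

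Liver RNA came from 10 male C57BL/6NCrSlc mice, with 1 one-colour Agilent array per mouse, for which 500 ng of RNA per liver was turned into cRNA and labelled with Cy3. The mulberry group was 5 mice whose drinking water carried mulberry leaf extract, for 4 weeks. The control group was 5 mice without the extract. All 10 mice ate a diet high in cholesterol, so no group on an ordinary diet entered the comparison, and the labels gave no age.

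Fibrillar collagens (types I, III and V in the liver) form the tensile fibres of connective tissue. Network collagens such as type IV make the sheet of basement membranes, and beaded-filament collagens (type VI) run between fibres and cells. In liver the fibrillar chains are made mostly by hepatic stellate cells and portal fibroblasts, and the type IV chains also by endothelial cells. Chains fold together inside the cell, are trimmed outside it by procollagen proteinases and are then cross-linked by lysyl oxidases.

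Levels are given as log2 of the background-corrected intensity minus the 75th percentile of the same array, so a level of 0 is the 75th percentile and a difference of 1 is a 2-fold ratio. Each probe has its own brightness, and levels are therefore not compared between genes. The 75th percentile of the processed signal ran between 147.1 and 265.3, between 54.4% and 62.4% of probes were well above background, and the correlation of any 2 arrays across genes lay between 0.940 and 0.993. Precision was limited by the number of arrays. All 9 hepatocyte markers with a named probe were detected on all 10 arrays.

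Col1a1, Col1a2, Col3a1 and Col4a1 were detected on all 10 arrays, and so were 25 of the 26 tested collagen genes. Col5a2 was well above background on 4 of the 5 mulberry arrays and on all 5 control arrays. In 12 further genes the probe was too dim for the test, which required 4 of 5 arrays in at least 1 group. Col17a1, Col19a1, Col28a1, Col4a3, Col4a5, Col6a6 and Col9a1 were not well above background on any array with any of their probes. Col8a2, Col9a3 and, through 1 of its 3 probes, Col23a1 were well above background on 1 mulberry array each, and Col10a1 and Col24a1 on 1 control array each. None of the 12 allowed a bound on a fold. The 5 genes without a named probe (Col6a3, Col6a5, Col12a1, Col20a1 and Col22a1) were read from the series table alone.

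Across the 26 tested genes, 17 were higher and 9 lower in the mulberry livers, and 0 passed an adjusted p of 0.05 (limma with Benjamini-Hochberg adjustment over all 17846 genes). The median difference was 0.20, with a range from -0.40 for Col13a1 to 0.99 for Col1a1, and the median over all genes tested was -0.01. Of all genes tested, 0% passed that threshold and 48.1% had a difference above 0. At an unadjusted p of 0.05, 1 of the 26 collagen genes passed in the higher direction and 0 in the lower, against 3.01% and 2.33% of all genes (5.35% together). The smallest adjusted p among the collagen genes was 0.888. With each array centred on its median instead, 14 collagen genes were higher and 12 lower with a median of 0.04, while the median of all genes moved to -0.17 and 26.8% of them were above 0. With the normexp background correction, 20 were higher and 6 lower.

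**Figure D1:**
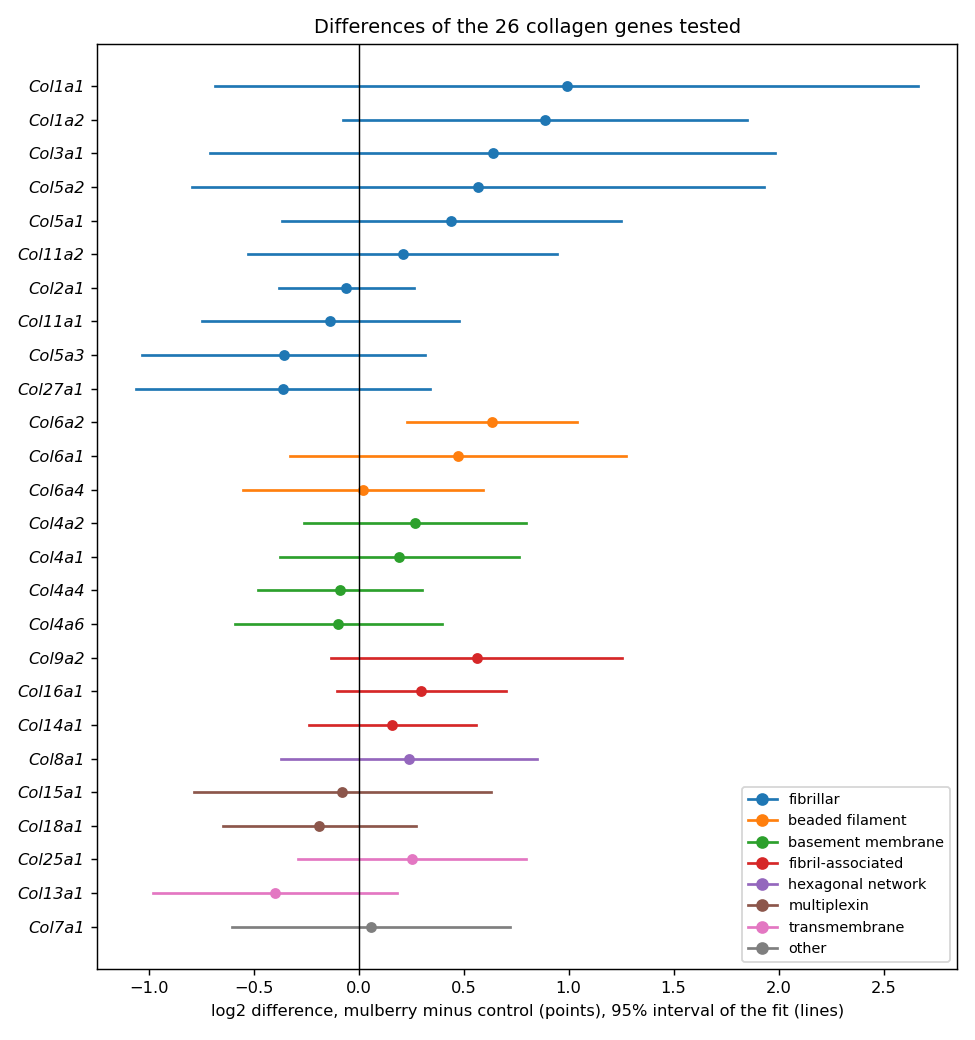
Difference in log2 level, mulberry minus control, of the 26 collagen genes tested, grouped by class of chain; points are the fitted differences and lines their 95% intervals. The interval of Col6a2 alone lies wholly on one side of 0, and the intervals of Col1a1, Col3a1 and Col5a2 are the widest.

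The fibrillar class held the largest difference, that of Col1a1. Of 11 fibrillar genes 10 were tested, 6 were higher and 4 lower, 0 passed the test, and their median difference was 0.33. Col1a1 encodes the alpha-1 chain of type I collagen, of which each type I molecule usually holds a pair. Its level was 1.62, -2.10, -2.04, -1.03 and 1.70 in mulberry 1 to 5, against -1.49, -0.90, -1.53, -2.07 and -0.82 in control 1 to 5. Mulberry 1 and mulberry 5 stood above every other array by more than 2 log2 units, and the other 3 mulberry livers lay within or just below the control range. The difference was 0.99 ± 0.76 (SE, n = 5 and 5, 95% interval -0.68 to 2.67, exact permutation p = 0.381). A second detected Col1a1 probe gave 0.96 ± 0.64.

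Col1a2, the partner alpha-2 chain of type I collagen, had levels of 2.84, 1.44, 0.95, 1.18 and 3.16 in mulberry 1 to 5 and of 0.87, 1.36, 1.13, 0.31 and 1.47 in control 1 to 5. The same 2 mulberry livers were the highest, and the remaining 3 overlapped the controls. The difference was 0.89 ± 0.44 (95% interval -0.08 to 1.85, exact permutation p = 0.143, n = 5 and 5). Col3a1 encodes the only chain of type III collagen, which lies in the same fibres as type I. Its level was 3.66, 0.42, 0.23, 1.34 and 2.99 in mulberry 1 to 5, against 1.26, 1.40, 0.57, 0.94 and 1.29 in control 1 to 5. Mulberry 1 and 5 again lay far above the rest, while mulberry 2 and 3 were below all 5 controls. The difference was 0.64 ± 0.61 (95% interval -0.71 to 1.98).

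Type V collagen sits in the core of type I fibres and sets their thickness. The alpha-1 gene Col5a1 had levels of 0.22, -1.50, -1.86, -1.30 and -0.16 in mulberry 1 to 5, against -1.52, -1.26, -1.28, -1.63 and -1.13 in control 1 to 5. The difference of 0.44 ± 0.37 rested on mulberry 1 and 5, the 2 highest arrays, and a second, dimmer probe gave 0.04 ± 0.18. The alpha-2 gene Col5a2 had levels of -1.21, -4.38, -4.08, -3.27 and -1.33 in mulberry 1 to 5, against -3.32, -3.16, -3.35, -4.34 and -2.92 in control 1 to 5. Its difference was 0.57 ± 0.62, with the same 2 livers at the top and the others spread over and below the control range. Col5a2 is the neighbour of Col3a1 on chromosome 1 in the RefSeq table of assembly GRCm38.p6.

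Col5a3, the least widespread type V chain, did not have that order of arrays. Its level was 2.49, 2.94, 1.94, 2.20 and 2.44 in mulberry 1 to 5 and 1.92, 2.47, 3.15, 2.60 and 3.65 in control 1 to 5. Control 5 and control 3 were the highest, mulberry 1 and 5 lay in the middle, and the difference was -0.36 ± 0.31 with groups that overlapped. A dimmer Col5a3 probe gave 0.28 ± 0.21, the opposite sign. Col27a1, a fibrillar chain of cartilage, had a difference of -0.36 ± 0.32, and its control 3 and control 5 were likewise the highest. For Col2a1, the chain of cartilage type II collagen, the brighter probe gave -0.06 ± 0.15 and the dimmer one 0.60 ± 0.58. On that dimmer Col2a1 probe the levels were -0.96, -3.96, -4.30, -3.19 and -1.77 in mulberry 1 to 5, against -2.82, -3.31, -4.01, -3.73 and -3.31 in control 1 to 5, so that mulberry 1 and 5 were the highest there too. Col11a1 and Col11a2, the remaining tested fibrillar chains, had differences of -0.14 ± 0.28 and 0.21 ± 0.33. A dimmer Col11a2 probe gave 0.58 ± 0.32 with mulberry 2 and 4, which shared a slide, as its highest arrays. The dim fibrillar gene Col24a1 was not tested.

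**Figure D2:**
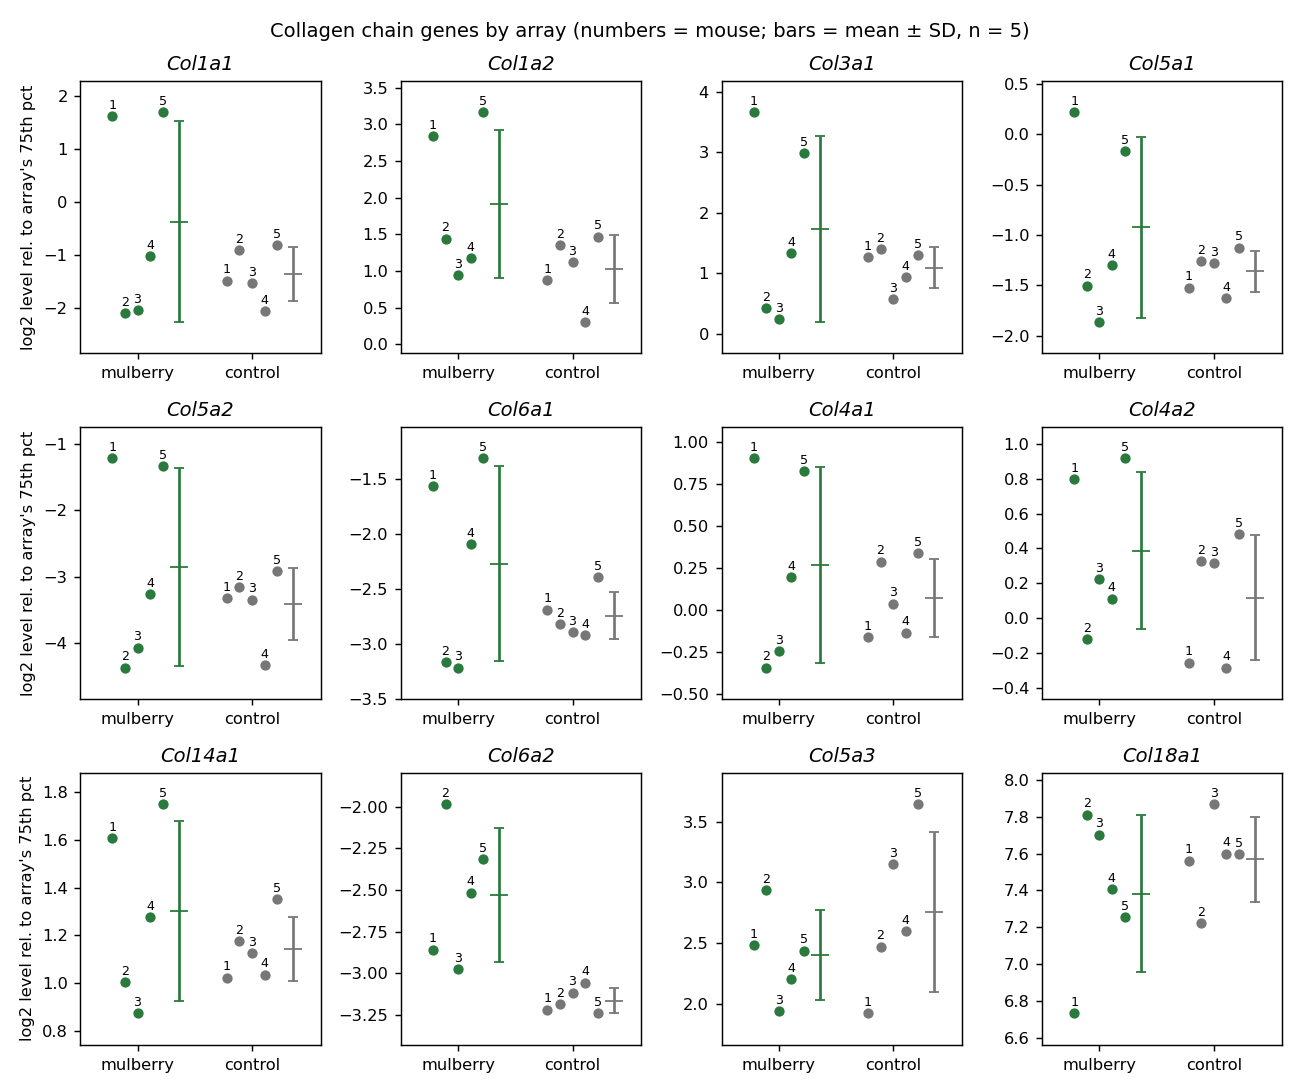
Log2 level relative to the array's 75th percentile for 12 collagen genes, with 1 point per mouse, numbered by mouse, and the mean ± SD of each group of 5; mulberry is left of control. Mulberry 1 and 5 are the highest 2 points in the panels from Col1a1 to Col14a1, and in the Col6a2 panel all 5 mulberry points lie above all 5 control points.

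Promoter sequences are shown for 4 fibrillar genes, 3 in which mulberry 1 and 5 were the highest arrays (Col1a2, Col3a1 and Col5a1) and 1 in which they were not (Col5a3). Each is the 250 bases before the gene's start, 5′ to 3′ on the gene's strand, from RefSeq with assembly GRCm38.p6. The regions are chr6:4505368-4505617 on the plus strand for Col1a2, chr1:45311288-45311537 on the plus strand for Col3a1, chr2:27886175-27886424 on the plus strand for Col5a1 and chr9:20815068-20815317 on the minus strand for Col5a3. Capitals mark matches on either strand to CCAAT (the CCAAT box, ATTGG on the other strand), GGGCGG (the GC box, CCGCCC on the other strand) and TATAAA (the TATA box, TTTATA on the other strand).
Col1a2: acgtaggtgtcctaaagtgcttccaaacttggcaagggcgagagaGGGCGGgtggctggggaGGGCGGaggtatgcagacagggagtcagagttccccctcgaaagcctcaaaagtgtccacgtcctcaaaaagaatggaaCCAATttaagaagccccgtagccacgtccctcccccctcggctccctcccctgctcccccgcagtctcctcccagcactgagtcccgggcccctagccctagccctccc
Col3a1: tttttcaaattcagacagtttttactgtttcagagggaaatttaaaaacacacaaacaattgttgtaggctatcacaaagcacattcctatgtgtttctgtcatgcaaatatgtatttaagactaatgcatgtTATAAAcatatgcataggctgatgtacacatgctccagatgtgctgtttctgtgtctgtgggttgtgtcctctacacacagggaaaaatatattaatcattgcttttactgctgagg
Col5a1: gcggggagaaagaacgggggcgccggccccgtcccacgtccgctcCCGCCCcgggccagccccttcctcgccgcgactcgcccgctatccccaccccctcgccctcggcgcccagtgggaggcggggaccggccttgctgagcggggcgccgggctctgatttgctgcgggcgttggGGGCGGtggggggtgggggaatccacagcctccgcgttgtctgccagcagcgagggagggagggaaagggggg
Col5a3: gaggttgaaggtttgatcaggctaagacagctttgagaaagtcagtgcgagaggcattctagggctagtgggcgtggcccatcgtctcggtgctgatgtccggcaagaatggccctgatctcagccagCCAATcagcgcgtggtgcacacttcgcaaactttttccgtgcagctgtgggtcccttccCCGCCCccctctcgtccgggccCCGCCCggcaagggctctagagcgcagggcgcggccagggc

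The Col1a2 promoter held 1 CCAAT and 2 GGGCGG matches, the Col5a1 promoter 2 GGGCGG matches, and the Col3a1 promoter 1 TATAAA match with none of the others. Col5a3 held 1 CCAAT and 2 GGGCGG matches, the same numbers as Col1a2. Of the 22 tested collagen genes with an entry in the promoter table, 10 held CCAAT, 16 GGGCGG and 3 TATAAA. Over all 32851 promoters of that length the shares were 33.8%, 32.7% and 12.4%. These shares are per promoter entry and include genes not tested, while a collagen gene counted if any of its entries matched. No matches overlapped in the 4 sequences shown, and a match is a description of the letters only. No promoter is shown for Col1a1, Col5a2 or Col14a1.

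The beaded-filament chains of type VI collagen were the next class, with 3 of 6 genes tested, all 3 higher in the mulberry livers, 0 past the test and a median difference of 0.47. Col6a2, the alpha-2 chain, had levels of -2.86, -1.98, -2.98, -2.52 and -2.32 in mulberry 1 to 5, against -3.22, -3.19, -3.12, -3.06 and -3.24 in control 1 to 5. Every mulberry liver lay above every control liver, and the controls spanned only 0.19 log2 units. The difference was 0.63 ± 0.18 (95% interval 0.23 to 1.04, unadjusted p = 0.0054 and adjusted p = 0.888 from limma). The exact permutation test gave p = 0.00794, the smallest that 252 assignments of 5 and 5 arrays allow. Groups that did not overlap were found in 1 of the 26 collagen genes and in 0.751% of all genes. In Col6a2 the highest array was mulberry 2, not mulberry 1 or 5. The gene had only 1 probe, and after the normexp correction its difference was 0.44 ± 0.27 (adjusted p = 0.668 from limma).

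Col6a1, the alpha-1 chain and the neighbour of Col6a2 on chromosome 10, had another order of arrays. Its level was -1.56, -3.17, -3.22, -2.09 and -1.31 in mulberry 1 to 5, against -2.69, -2.82, -2.90, -2.92 and -2.39 in control 1 to 5. Mulberry 5 and 1 were the highest and mulberry 2 and 3 the lowest of all 10 arrays, with a difference of 0.47 ± 0.36. Col6a4, the third tested type VI gene, had a difference of 0.02 ± 0.26. Col6a3, the long alpha-3 chain, was read from the series table as intensities of 80.1, 26.6, 24.5, 36.9 and 72.0 in mulberry 1 to 5, against 38.1, 29.8, 53.3, 26.2 and 29.2 in the 5 control columns. Mulberry 1 and 5 were its highest values too, and the difference was 0.32 ± 0.37 on the log2 scale. Col6a5, also read from the series table, had a difference of 0.36 ± 0.29, at intensities of only 1.27 to 2.87 and without an above-background flag. In that table Col4a5, which was not well above background on any array, had intensities of 1.35 to 2.92.

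Of the 6 basement-membrane genes 4 were tested, 2 were higher and 2 lower, 0 passed the test, and the median was 0.05. Col4a1 and Col4a2 encode the chains of the common type IV network and lie next to each other on chromosome 8 on opposite strands, with starts 21 bases apart. Col4a1 had levels of 0.90, -0.35, -0.25, 0.19 and 0.83 in mulberry 1 to 5, against -0.16, 0.28, 0.03, -0.14 and 0.34 in control 1 to 5. Col4a2 had levels of 0.80, -0.12, 0.23, 0.11 and 0.92 in mulberry 1 to 5, against -0.26, 0.33, 0.32, -0.28 and 0.48 in control 1 to 5. In both genes mulberry 1 and 5 were the highest 2 arrays, at a smaller distance than in the type I and III genes, and the groups overlapped. The differences were 0.19 ± 0.26 for Col4a1 and 0.27 ± 0.24 for Col4a2. The less widespread type IV chains, Col4a4 and Col4a6, had differences of -0.09 ± 0.18 and -0.10 ± 0.22.

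Fibril-associated collagens coat or bridge the fibres. Of the 9 genes of this class 3 were tested, all 3 were higher and 0 passed the test, with a median of 0.30. Col14a1, a chain found on type I fibres, had levels of 1.61, 1.004, 0.87, 1.28 and 1.75 in mulberry 1 to 5, against 1.02, 1.18, 1.13, 1.04 and 1.35 in control 1 to 5. Mulberry 5 and 1 were the highest and mulberry 3 the lowest, and the difference was 0.16 ± 0.18. Col16a1 had the same highest 2 arrays with a difference of 0.30 ± 0.18. Col9a2, a chain of cartilage type IX collagen, had another order of arrays. Its level was -2.35, -0.70, -1.83, -0.98 and -2.15 in mulberry 1 to 5, against -1.84, -2.47, -2.28, -1.89 and -2.33 in control 1 to 5. Mulberry 2 and 4 were its highest arrays, mulberry 1 was the second lowest of all 10, and the difference was 0.56 ± 0.31. Mulberry 2 and 4 shared a slide that held no control array, so slide and liver cannot be told apart in this order. In the series table Col12a1 had a difference of -0.56 ± 0.28, Col20a1 of 0.08 ± 0.15 and Col22a1 of 0.41 ± 0.27. Their adjusted p lay between 0.889 and 0.945 from limma. None of them had an above-background flag, and the intensities of Col12a1 were only 2.64 to 8.05.

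The multiplexins, basement-zone collagens with interrupted triple helices, were both tested and both lower, and neither passed the test. Col18a1, whose cleaved end is endostatin and which hepatocytes also make, had levels of 6.73, 7.81, 7.70, 7.41 and 7.25 in mulberry 1 to 5, against 7.56, 7.22, 7.87, 7.60 and 7.60 in control 1 to 5. Mulberry 1 was the lowest array and mulberry 5 the third lowest, and the difference was -0.19 ± 0.21. Col15a1 had a difference of -0.08 ± 0.32. Of the 4 transmembrane genes 2 were tested. Col13a1 had the most negative difference of the tested collagen genes, -0.40 ± 0.26, and its second probe also gave -0.40. Its level was -0.70, 0.14, -0.02, 0.46 and -0.49 in mulberry 1 to 5, against 0.62, -0.44, 0.33, 0.23 and 0.63 in control 1 to 5, so mulberry 1 and 5 were the 2 lowest arrays and the groups overlapped. Col25a1, Col8a1 of the hexagonal networks and the anchoring-fibril gene Col7a1 had differences of 0.25 ± 0.25, 0.24 ± 0.28 and 0.06 ± 0.30.

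**Figure D3:**
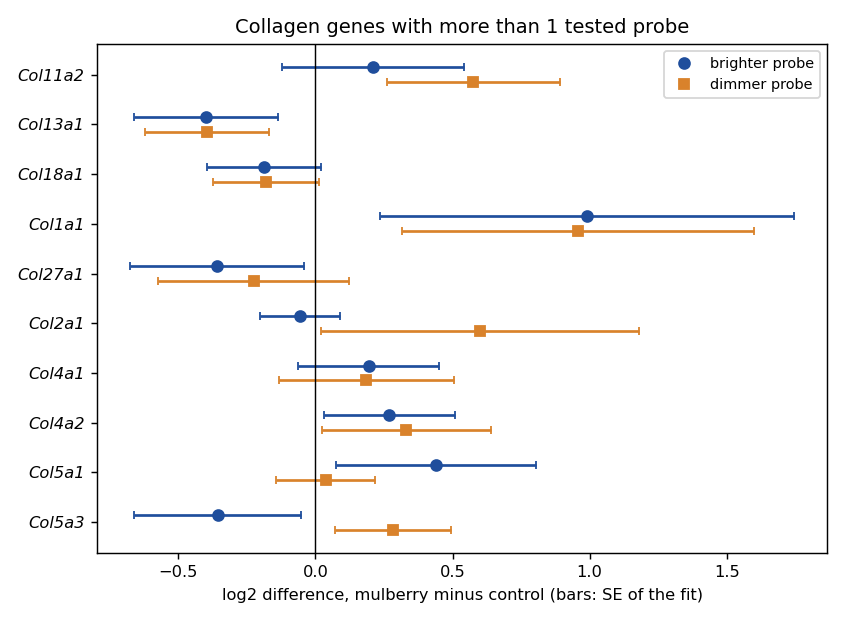
Differences in log2 level, mulberry minus control, for the 10 collagen genes with more than 1 tested probe; circles are the brighter and squares the dimmer probe, and bars are the SE of the fit. The probes have opposite signs in Col2a1 and Col5a3 and the same sign in the other 8 genes.

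Mulberry 1 and mulberry 5 were the highest 2 of the 10 arrays in 11 of the 26 collagen genes, a count made after the values were seen. These were Col1a1, Col1a2, Col3a1, Col5a1, Col5a2 and Col11a2 among the fibrillar genes, together with Col4a1, Col4a2, Col6a1, Col14a1 and Col16a1. The count takes each gene by its brightest probe, and the dimmer tested probes of Col5a1, Col11a2 and Col4a2 did not have both livers at the top, while those of Col1a1, Col4a1 and Col2a1 did. Over all genes tested the same 2 arrays were the highest in 11.7%. The number of collagen genes was 11 again after median, quantile and detected-probe scaling (10.4%, 12.8% and 13.1% of all genes) and 7 after the normexp correction (6.67% of all genes). The SD of the mulberry group was more than 2 times that of the control group in 16 of the 26 genes, 61.5%, against 23.8% of all genes. The median ratio of the SDs was 2.37 in the collagen genes and 1.25 over all genes.

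**Figure D4:**
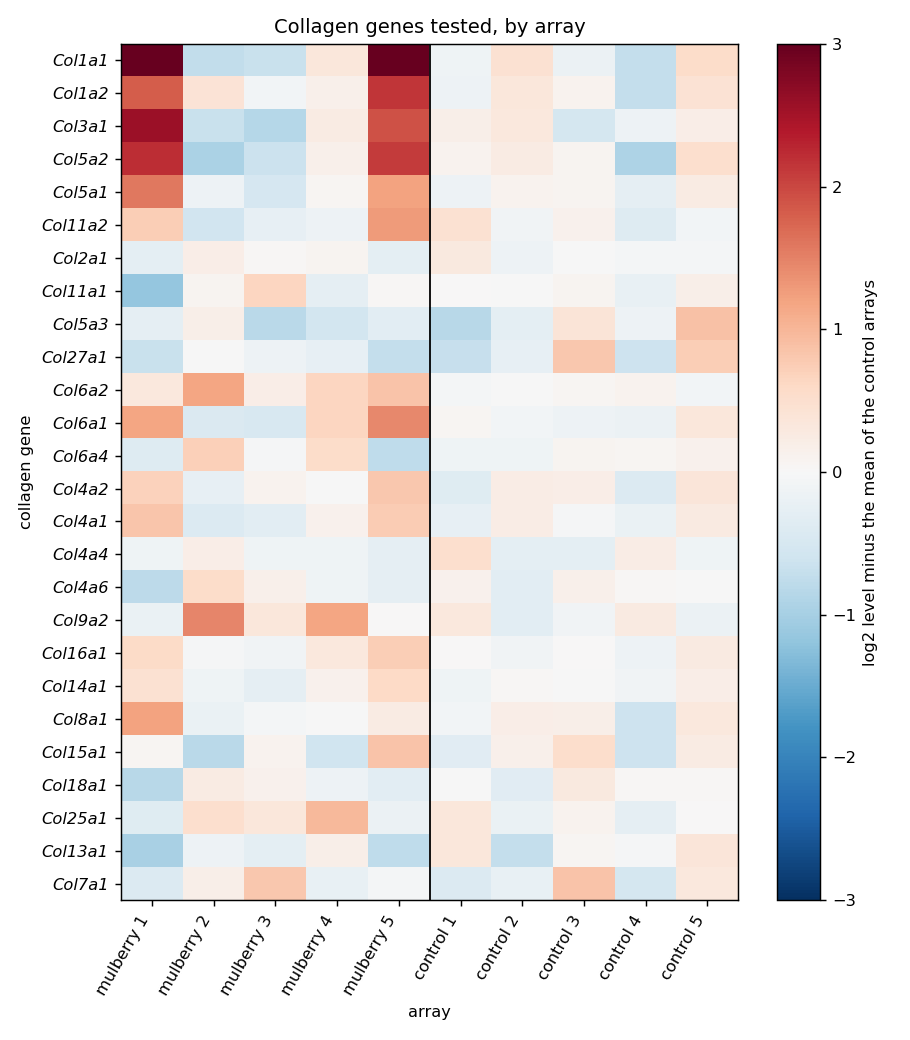
Log2 level minus the mean of the 5 control arrays for the 26 collagen genes tested (rows, by class) on each array (columns, mulberry left of control), with colours limited to differences between -3 and 3. The columns of mulberry 1 and 5 are dark red in the fibrillar genes from Col1a1 to Col5a1 and in Col6a1, and blue in Col13a1 and Col27a1.

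Without mulberry 1 and mulberry 5, an alternative chosen after the values were seen, the median of the 26 collagen differences was -0.063, with 11 genes higher, 15 lower and 0 past the test. In the same fit the median over all genes was 0.045, with 58.9% of them higher. Col1a1 then had a difference of -0.36, Col3a1 of -0.43, Col5a2 of -0.49, Col5a1 of -0.19, Col4a1 of -0.20, Col4a2 of -0.04, Col6a1 of -0.08 and Col14a1 of -0.09, all with the sign turned. Col1a2 kept its sign at 0.16. Col6a2 had 0.67 ± 0.20 and Col9a2 0.99 ± 0.26, with adjusted p of 0.284 and 0.242 from limma over all genes. Where mulberry 1 and 5 were the highest arrays, leaving them out had to lower the difference. In Col9a2, where they were the lowest mulberry arrays, it had to raise the difference. The direction of these changes was therefore fixed by the choice of arrays and is no separate evidence.

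The file headers recorded 2 scan days, and each held arrays of both groups. The first day held mulberry 3 and 5 with control 2, 3 and 5, and the second mulberry 1, 2 and 4 with control 1 and 4. Mulberry 5 was scanned on the first and mulberry 1 on the second, so each day had 1 of the 2 high livers. For genes highest in these livers, a positive value on both days is therefore no separate evidence. The difference within the first and the second day was 0.91 and 1.28 for Col1a1, 0.74 and 1.23 for Col1a2, 0.53 and 0.71 for Col3a1, 0.54 and 0.69 for Col6a2, 0.44 and 0.53 for Col6a1, and 0.07 and 0.40 for Col4a1. It was -0.90 and 0.28 for Col5a3 and -0.87 and 0.35 for Col27a1, which turned sign between the days. Of the 4 slides only the third held arrays of both groups, and with 1 mulberry array on it, mulberry 1, no within-slide comparison with replicates was possible. With scan day as a block, Col1a1 had a difference of 1.09 ± 0.80, Col1a2 of 0.98 ± 0.45, Col3a1 of 0.62 ± 0.66 and Col6a2 of 0.61 ± 0.19. With slide as a block, which sets mulberry 1 against control 1 and control 4, they were 3.40 ± 1.23, 2.25 ± 0.73, 2.56 ± 0.95 and 0.28 ± 0.33, with the smallest adjusted p 0.250 from limma. With slide as a random block they were 1.25 ± 0.83, 1.04 ± 0.48, 0.84 ± 0.66 and 0.60 ± 0.20. No collagen gene passed the test in any of these fits.

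The enzymes that fold and modify the chains before secretion had a median of 0.05 over 15 of 19 genes tested, with 8 higher, 7 lower and 0 past the test. Fkbp10, a chaperone of type I procollagen, had a difference of 0.54 ± 0.33, P3h4 one of 0.50 ± 0.25 and P3h3 one of 0.42 ± 0.26. Ppib, the prolyl isomerase cyclophilin B, had levels between 5.87 and 6.29 in the mulberry livers, against 6.42 to 6.76 in the control livers, with no overlap. Its difference was -0.44 ± 0.13 and its adjusted p from limma 0.888, so it did not pass either.

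Among the proteinases and cross-linking enzymes that act outside the cell 8 of 13 genes were tested, 4 were higher, 4 lower and 0 past the test, with a median of 0.09. Loxl1, a lysyl oxidase, had a difference of 0.90 ± 0.38, Adamts2, which trims type I procollagen, one of 0.36 ± 0.21, Loxl4 one of -0.35 ± 0.40 and Loxl2 one of 0.23 ± 0.63. Among the collagen receptors 5 of 10 were tested, with 3 higher, 2 lower and a median of 0.35. Mrc2, the uptake receptor for collagen fragments, had 1.08 ± 0.39, the inhibitory immune receptor Lair1 0.42 ± 0.60, the collagen-activated kinase Ddr2 0.35 ± 0.21 and the integrin chain Itga1 -0.09 ± 0.14, with 0 past the test.

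Matrix proteins that bind collagen had 10 of 12 genes tested, 9 higher, 1 lower, 0 past the test and a median of 0.31. Lum, a proteoglycan that spaces collagen fibrils, had a difference of 0.78 ± 0.26, Bgn one of 0.56 ± 0.30 and Tnxb one of 0.38 ± 0.21. Fn1, fibronectin, which hepatocytes also secrete, had -0.41 ± 0.21. Of 10 collagen-degrading proteinases and their inhibitors 7 were tested, 4 were higher, 3 lower and 0 past the test. The gelatinase Mmp2 had a difference of 1.30 ± 0.49, the membrane collagenase Mmp14 one of 0.54 ± 0.25 and the cathepsin Ctsk one of 0.28 ± 0.68. The level of Mmp2 was -0.44 and -0.55 in mulberry 1 and 5, against -3.82 to -2.12 on the other arrays. The collagenase Mmp13 had -1.96 ± 0.45, but its probe was well above background on only 2 of 5 mulberry arrays, and the value was 0.02 ± 0.33 after the normexp correction. Genes of TGF-beta signalling, a main inducer of collagen synthesis, had a median of 0.09 over 10 of 12 genes tested, with 6 higher, 4 lower and 0 past the test. The ligands Tgfb1 and Tgfb3 had differences of 0.47 ± 0.44 and 0.21 ± 0.26, and the pathway's target Ccn2 one of 0.30 ± 0.41. Mulberry 1 and 5 were the highest 2 arrays in 4 of the 15 folding genes, 3 of the 8 processing genes and 3 of the 5 receptors. The same held for 3 of the 10 collagen-binding genes, 4 of the 7 proteinases and inhibitors and 5 of the 10 TGF-beta genes. Over all genes the share was 11.7%, and these counts were made after the values were seen.

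The means of several lists of markers of other liver cells were also highest in mulberry 1 and 5. In bulk tissue fewer cells of a type and less RNA per cell cannot be told apart. As the mean over the list relative to the control mean, the 10 fibrillar genes stood at 0.95, -0.22, -0.33, -0.02 and 1.04 in mulberry 1 to 5, against -0.42 to 0.36 in the control livers. All 13 stellate cell markers were tested, and their mean ran from -0.12 to 0.83 in the mulberry livers, against -0.14 to 0.21 in the control livers, with 0.71 in mulberry 1 and 0.83 in mulberry 5. Of these 13, 11 were higher and 2 lower, with a median of 0.26. Vim had 0.86 ± 0.77, Hgf 0.66 ± 0.31, Cygb 0.57 ± 0.23 and Pdgfrb 0.43 ± 0.29. The level of Vim was 4.86 and 4.64 in mulberry 1 and 5, against 0.97 to 2.49 on the other arrays. Reln, named after its values were seen, had its lowest level, 0.91, in mulberry 1. Mulberry 1 and 5 were the highest 2 arrays in 5 of the 13 stellate markers (Des, Pdgfrb, Vim, Cygb and Hgf) and not in the other 8, among them the contractile genes Acta2 (-0.06 ± 0.35) and Tagln (-0.15 ± 0.25), which were the 2 lower ones and are named after their values were seen.

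The macrophage list had 15 of 16 genes tested, 14 higher and 1 lower, with a median of 0.65. In mulberry 1 and mulberry 5 the list averaged 2.11 and 2.05, against -0.83 to 0.98 in the control livers, and the lowest mulberry liver was at -0.76. The lymphocyte list had 11 of 12 tested, all 11 higher with a median of 0.72, and its mean ran from 0.05 to 1.74 in the mulberry livers, against -0.34 to 0.61 in the control livers. Lyz2 had a difference of 1.21 ± 0.97, Gpnmb of 1.09 ± 0.95, Ccr2 of 1.03 ± 0.92, Itgax of 0.81 ± 0.97, Cd2 of 1.12 ± 0.61, Lck of 1.095 ± 0.74, Cd3d of 1.02 ± 0.76 and Cd3g of 1.02 ± 0.68. No gene of either list passed the test. Mulberry 1 and 5 were the highest 2 arrays in 14 of the 15 macrophage markers and in 7 of the 11 lymphocyte markers. Among the other lymphocyte markers, named after their values were seen, mulberry 1 was the lowest array for Cd4, at -4.34, and the second lowest for Cd3e, at -2.24. Control 2 had the highest macrophage mean of the control livers, 0.98, below those of mulberry 1 and 5. Its fibrillar mean was 0.06, against -0.09, 0.10, -0.42 and 0.36 in control 1, 3, 4 and 5. Control 2 is named after its values were seen, and a link between macrophage and collagen levels was not tested.

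The 11 endothelial markers, all tested, had a median of -0.00 (5 higher, 6 lower), and their mean stayed between -0.25 and 0.24 in the mulberry livers, against -0.18 to 0.15 in the control livers, with mulberry 1 and 5 the highest at 0.24 and 0.20; Lyve1 had 0.39 ± 0.24, Tek -0.31 ± 0.23, Clec4g -0.22 ± 0.13 and Pecam1 0.15 ± 0.26. All 9 hepatocyte markers tested of 12 were lower, with a median of -0.31 and a mean of -0.90 to 0.04 in the mulberry livers, against -0.40 to 0.18 in the control livers, and mulberry 1 was the lowest. Tat had -0.69 ± 0.25, Ass1 -0.57 ± 0.20, Hpd -0.37 ± 0.27 and Ttr -0.37 ± 0.23. Of 6 bile duct markers 4 were tested, 1 was higher and 3 lower, with a mean of -0.43 to 0.21 in the mulberry livers, against -0.21 to 0.34 in the control livers; Cdh1 had -0.61 ± 0.18, Sox9 0.31 ± 0.23, Krt19 -0.16 ± 0.19 and Epcam -0.12 ± 0.30. Of 6 markers of mesothelium, the covering of the liver's surface, 4 (Upk3b, Upk1b, Wt1 and Lrrn4) were not well above background on any array, and the 1 tested, Krt8, which hepatocytes also express, had -0.65 ± 0.22. No marker of these 4 lists passed the test. The part of any of these lists in the collagen levels was not tested.

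**Figure D5:**
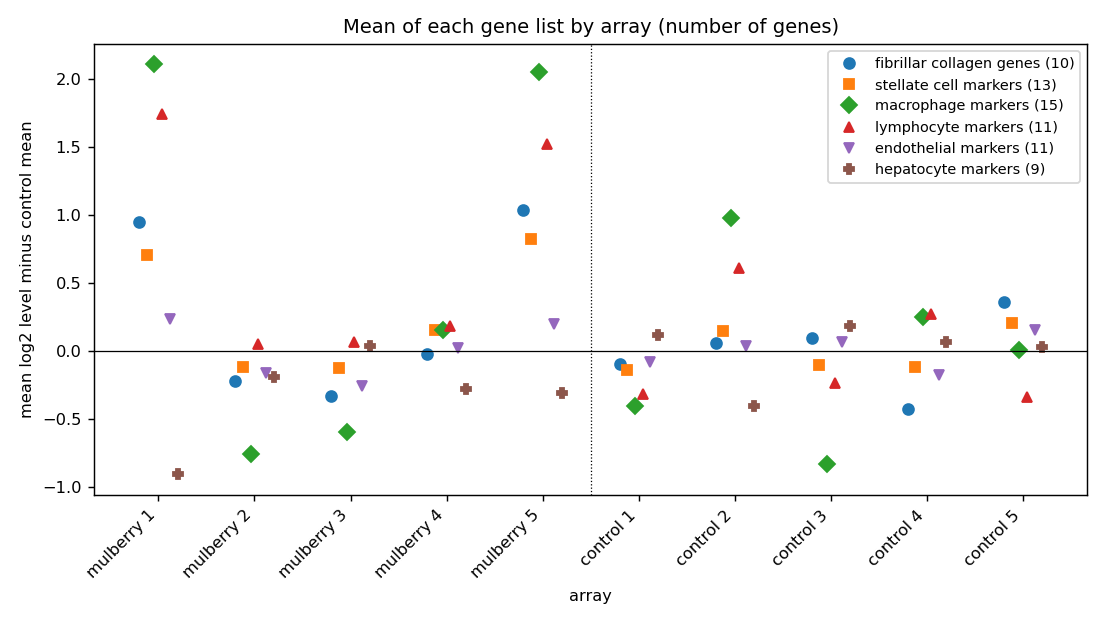
Mean log2 level of 6 gene lists on each array, relative to the mean of the 5 control arrays, with mulberry left of control and the number of tested genes in brackets. In mulberry 1 and 5 the fibrillar collagen genes (0.95 and 1.04), the stellate markers (0.71 and 0.83) and the macrophage and lymphocyte markers all lie above every other array, while the endothelial markers, also highest in these 2 arrays (0.24 and 0.20), stay between -0.25 and 0.24.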

How the data were processed

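Per the file headers, the deposited scanner files hold a processed fluorescence intensity per spot, corrected for background within the array by the authors' software and not normalized between arrays. The submitters' processing notes name Agilent Feature Extraction 10.1.1.1. A deposited series table holds a linear intensity per gene symbol, and its normalization and probe summary are not given in the sources used here. The log2 medians of its columns were 5.31, 5.17, 5.11, 5.19 and 5.24 for mulberry 1 to 5, against 5.14, 5.15, 5.18, 5.10 and 5.17 for control 1 to 5. Over 5256 genes with 1 probe, its mulberry columns followed their own scanner arrays (r 0.989 to 0.997), but each control column followed another control's array (r 0.981 to 0.994, against -0.60 to -0.03 for the array of its own label). Groups are unaffected, and control numbers in the text follow the scanner files except for genes read from the table.

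Control spots and outlier spots were left out, replicate spots were averaged and 41128 probes were kept, of which 25070 (61.0%) were named by accession through RefSeq (GRCm38.p6). The headers name an older build. Values were log2 of the processed signal minus the array's 75th percentile, and a gene was its probe with the highest mean. Testing required the software's above-background flag for that probe on 4 or more of the 5 arrays in either group. The test was limma 3.58.1 (R 4.3.3), two-sided, with Benjamini-Hochberg adjustment over all 17846 genes, without covariates, and was checked on simulated data. Single genes also had a two-sided exact permutation test. No spot was saturated (0 spots), and 0 sample columns were left unused.

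Alternatives covered scaling, normexp (offset 50, on median signals because the files hold no mean signal), the series table, filters, probe choice, scan day, slide and replicate number as blocks, array weights, the variance prior and leaving out each mouse. Leaving out mulberry 1 and 5 together and the within-day values were added after seeing the data. The collagen genes named were the chains common in liver, the 5 with the smallest p in each direction and those whose probes differ in sign, and from other lists up to 4 by size of difference. One gene that this rule names is not reported here. Other members are given for completeness. Members and lists were chosen with earlier results of these data known.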

Additional observations from a re-analysis of the deposited data

Results flagged for a closer look

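Of 120 sets of 5 values examined (38 collagen genes and 22 list means in each group), 6 had a highest or lowest array whose gap to the nearest other exceeded 0.71 of the range, Dixon's critical value, and chance gives about 6. All 6 were in the control group. For Col24a1, control 2 stood at -0.62 against -7.07 to -6.86 in the others (0.967 of the range), the 1 array on which that probe was well above background. For Col19a1, control 4 stood at -4.99 against -7.38 to -7.00 (0.841), and for Col9a1, control 2 stood at -7.47 against -5.67 to -5.03 (0.740), both on probes not well above background on any array. For Col2a1, control 1 stood at -0.83 against -1.27 to -1.14 (0.711). The mean of the TGF-beta genes was highest in control 4, at 0.33 against -0.17 to -0.04 (0.732), and that of the hepatocyte markers lowest in control 2, at -0.40 against 0.03 to 0.18 (0.746).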

How the results depend on the processing

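No collagen gene passed the threshold in the main setting or any of the 27 alternatives. The collagen median was 0.04 with median scaling, 0.11 with quantile normalization, 0.27 with normexp, 0.09 in the series table (25 of 43 higher), 0.41 with slide as a block and 0.01 with array weights, and leaving out each mouse gave 0.11 to 0.29. Only without mulberry 1 and 5 was it below 0, at -0.063. Under the slide block, which compares only mulberry 1 with 2 controls, 12 collagen genes had an unadjusted p under 0.05, against 1 in the values reported, with a smallest adjusted p of 0.250; over all genes the share was 19.6%, against 5.35%. The number was 4 with array weights (14.8% of all genes) and 4 without mulberry 1 and 5 (9.72% of all genes). Over all genes, 1 passed with array weights, 0 to 1 on leaving out each mouse (1 without mulberry replicate 1) and 3 without mulberry 1 and 5. The cause was not tested. Of 512 alternative values of 19 named collagen genes, 37 had the other sign and 0 were called, and of 1304 values of 49 genes of other lists, 50 and 0.

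Correlations of same-numbered deviations ran from -0.44 to 0.41. The control numbers are unsettled, since each control column followed another control's array, so these values cannot decide whether mice were paired. With the replicate number as a block, 0 collagen genes passed, 2 had an unadjusted p under 0.05 and the median was 0.20. Dim probes set a limit: 12 of 38 collagen genes with a probe could not be tested.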
